A study of Homo sapiens with 20 samples.

Results

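The transcripts of 9 cell-surface proteins that are studied as targets in colon tumours (CDH17, GPA33, GUCY2C, TM4SF4, PROM1, MET, MSLN, CD276 and CD274) were followed in extracellular vesicles and in the cells that shed them. The 9 genes were taken by symbol, whatever their level, and all 9 were found among the 17113 genes of the count table. Vesicle RNA and cell RNA came from 10 human colorectal cancer lines (SW480, COLO-201, HT-29, HCT 116, LS513, LS1034, LoVo, WiDr, LS123 and SNU-C1), with 1 library of each kind per line and so 20 libraries. All lines are untreated established lines labelled as adenocarcinoma of the large intestine. Each is a cultured tumour cell population with no stroma or immune cells of its own, grown with fetal bovine serum. Vesicles (membrane-bound particles shed into the medium) had their RNA extracted by an exosome kit and amplified for low input, whereas cell RNA went through a stranded, ribosome-depleting preparation. Origin and preparation thus differ together, and their parts in any difference cannot be told apart. The question addressed is whether vesicle RNA reports which antigens the cells express.

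CDH17, GPA33 and GUCY2C are made by differentiated intestinal epithelium, where transcription factors such as CDX2 drive many genes of that lineage, and they are kept by a subset of colorectal tumours. MET and PROM1 are found on epithelial tumour cells more widely, while CD276 and CD274 belong to the B7 family of ligands that act on T cells. Antibodies, engineered T cells and toxin conjugates against such antigens depend on their presence on the tumour cell, and vesicles in body fluids have been studied as a way to read it without a biopsy.

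Counts per library ranged from 1.75 to 24.4 M in vesicles, with a median of 4.56 M, and from 24.8 to 37.4 M in cells, with a median of 33.0 M. A gene with 0 counts could still have been present at up to 3 counts, which is 0.123 to 1.72 CPM (counts scaled to a library total of 1 M) in vesicles and 0.0802 to 0.121 CPM in cells, counting error only. Vesicle libraries carried reads over genes that the cells hardly use. Over 2039 silent genes, defined by 10 or fewer counts in every cell library, reads were modelled on gene length and base composition, and extending that model to all genes gave an estimated background of 1.85% to 45.4% of the counts in vesicles and 0.0321% to 0.152% in cells. The background was lowest in vesicles of SW480 (1.85%), COLO-201 (2.11%), HT-29 (2.29%), HCT 116 (3.01%) and LS513 (6.52%), from here on the lower-background lines. It was 17.1% in LS1034, 21.9% in LoVo, 27.2% in WiDr, 37.5% in LS123 and 45.4% in SNU-C1, the higher-background lines. Some lines were close to one another. After centring each gene, cell libraries of HT-29 and WiDr correlated at 0.845 and those of HCT 116 and LS123 at 0.760, and the next pair, SNU-C1 and LS513, at 0.338. WiDr is known as a derivative of HT-29, so the 10 lines are not 10 independent tumours. Whether the libraries labelled LS123 hold a line distinct from HCT 116 was not tested, and LS123 supplies many of the exceptions described. The fits, correlations and line pair order were also run without WiDr and LS123, and some of these values are given. Antigen status and the nearest line were not read without them.

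The cell libraries carried epithelial markers. EPCAM averaged 274 ± 121 CPM in vesicles and 2579 ± 1795 CPM in cells (TMM-scaled CPM, SD, n = 10 each). The summed level of 8 epithelial markers, in CPM of the library total, was 3009 to 16583 in vesicles and 3018 to 17186 in cells. The intestinal factor CDX2 reached 5 CPM in the cells of 7 of the 10 lines, as did the intestinal keratin KRT20, and the microvillus protein VIL1 did so in 8. Markers of cells that such cultures should lack were also present in vesicle libraries. The summed level of 4 erythroid and platelet markers was 2.01 to 309 CPM in vesicles and 0.0606 to 6.11 CPM in cells, of 4 fibroblast and endothelial markers 16.4 to 343 CPM in vesicles and 0.202 to 11.7 CPM in cells, and of 3 hepatocyte and serum markers 1.77 to 42.7 CPM in vesicles and 0.0404 to 5.21 CPM in cells. No marker of these lists was at 0 in every vesicle library. HBB, PPBP, COL1A2, DCN and APOA1 stayed under 1 CPM in the cells of all lines. The part of these reads in the antigen values was not tested.

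The promoters of GPA33 and TM4SF4 are shown because these antigens differed in pattern over the lines, GPA33 high in LS1034, SNU-C1 and LS513 cells and TM4SF4 high in HT-29 and WiDr cells. Each sequence runs from 250 bases before to 50 bases after the gene's start, 5′ to 3′ on the gene's own strand, from RefSeq (GRCh38.p14), whose promoter table held 6 of the 9 antigens. The GPA33 window is chr1:167090328-167090627 on the minus strand and the TM4SF4 window is chr3:149474447-149474746 on the plus strand. Capitals mark exact matches on either strand to 2 motifs: the CDX core TTTAT, which 35.0% of 34796 promoters of the same length held, and the TATA box TATAAA, which 11.6% held.
GPA33: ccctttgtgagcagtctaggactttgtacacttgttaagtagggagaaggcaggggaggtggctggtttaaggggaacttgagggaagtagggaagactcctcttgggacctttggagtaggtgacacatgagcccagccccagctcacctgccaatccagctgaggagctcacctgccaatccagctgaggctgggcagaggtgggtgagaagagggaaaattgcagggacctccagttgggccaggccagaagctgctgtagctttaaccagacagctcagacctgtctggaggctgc
TM4SF4: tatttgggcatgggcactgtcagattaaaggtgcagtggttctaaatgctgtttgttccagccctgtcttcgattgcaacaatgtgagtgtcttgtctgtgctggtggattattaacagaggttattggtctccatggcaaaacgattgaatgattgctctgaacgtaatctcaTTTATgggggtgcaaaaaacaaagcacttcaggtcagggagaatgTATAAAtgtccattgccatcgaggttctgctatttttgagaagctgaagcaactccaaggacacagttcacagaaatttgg
The TM4SF4 window held 2 CDX cores and 1 TATA box, and 1 of the CDX cores lies inside the TATA box. The GPA33 window held none of these letters. A match describes the letters alone.

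Among the intestinal antigens, CDH17, GPA33 and GUCY2C were high in the cells of the same 3 lines, LS1034, SNU-C1 and LS513, and vesicle libraries of these lines read 3.74% to 16.1% of the cell level. For GUCY2C in SNU-C1 and LS513 the vesicle counts did not exceed the background limit, so by that limit those shares are not shown to be GUCY2C transcript. The 2 lines differed, with SNU-C1 at 0.791 times the estimated background and LS513 at 3.78 times. LS513 had 71 counts against a limit of 75.8. CDH17 encodes liver-intestine cadherin, an adhesion protein of the enterocyte's lateral membrane. Its level ran from 0.575 CPM in HT-29 vesicles over a median of 30.2 to 126 CPM in SNU-C1 vesicles, and from 0.0606 CPM in HCT 116 cells over a median of 9.20 to 2139.7 CPM in LS1034 cells. Vesicles had 99.6 CPM in LS1034, 126 in SNU-C1, 55.8 in LS513 and 119 in LoVo, against 2139.7, 1577, 1493 and 858 CPM in cells of these lines in the same order. These 4 lines were the 4 highest in both compartments, and no vesicle library of another line reached the lowest of them. Vesicles of these 4 lines held 3.74% (LS513) to 13.8% (LoVo) of the cell level. In cells of the other 6 lines CDH17 was at 13.3 CPM or less, and vesicles of LS123 and WiDr nonetheless had 33.7 and 26.6 CPM, against 0.382 and 1.01 CPM in their cells. Those vesicle counts, 69 in LS123 and 78 in WiDr, were 2.004 and 1.98 times the counts estimated as background for a gene of this length and composition.

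GPA33, the A33 antigen, is a glycoprotein of intestinal epithelial junctions. GPA33 had 0.351 CPM at the lowest (SW480), 14.9 at the median and 85.2 at the highest (SNU-C1) in vesicles, and 0.0382 CPM at the lowest (LS123), 10.1 at the median and 745 at the highest (SNU-C1) in cells. In vesicles it reached 85.2 CPM in SNU-C1, 74.3 in LS513 and 42.6 in LS1034, against 745, 461 and 303 CPM in the cells. These 3 lines led in both compartments, with vesicles at 11.4%, 16.1% and 14.05% of the cells. LoVo had 14.8 CPM in vesicles and 37.6 CPM in cells, and HT-29 had 2.71 CPM in vesicles and 16.3 CPM in cells. LS123 vesicles, at 31.7 CPM, lay above those of both LoVo and HT-29, although LS123 cells had a single count. None of these vesicle values exceeded the background limit. Counts were 65 in LS123, 48 in LoVo and 66 in HT-29, against limits of 71.5, 62.7 and 95.1. They are thus not shown to be GPA33 transcript.

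GUCY2C encodes guanylate cyclase C, the receptor for guanylin, uroguanylin and the heat-stable enterotoxin of Escherichia coli. Its vesicle level ran from 0.164 CPM (HT-29) over a median of 11.6 to 37.1 CPM (LS123), and its cell level from 0.151 CPM (HCT 116) over a median of 0.433 to 342 CPM (LS1034). LS1034, SNU-C1 and LS513 had 34.2, 14.3 and 8.93 CPM in vesicles and 342, 124 and 82.7 CPM in cells, a vesicle share of 10.0%, 11.51% and 10.8%. In cells these 3 lines stood apart from the other 7, of which LoVo was highest at 7.80 CPM and the rest were at 0.479 CPM or less. In vesicles they did not stand apart. LS123 vesicles exceeded every other vesicle library with 76 counts, although LS123 cells had 8 counts, and WiDr vesicles had 26.6 CPM against 0.387 CPM in WiDr cells. The observed counts were 2.07 times the estimated background in LS123, 1.86 times in WiDr, 0.791 times in SNU-C1, 3.78 times in LS513 and 7.66 times in LS1034. GUCY2C overlaps the antisense gene PLBD1-AS1, and the strand setting of the counting is not given in the sources used here, so reads of the antisense gene could be included.

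**Figure D1:**
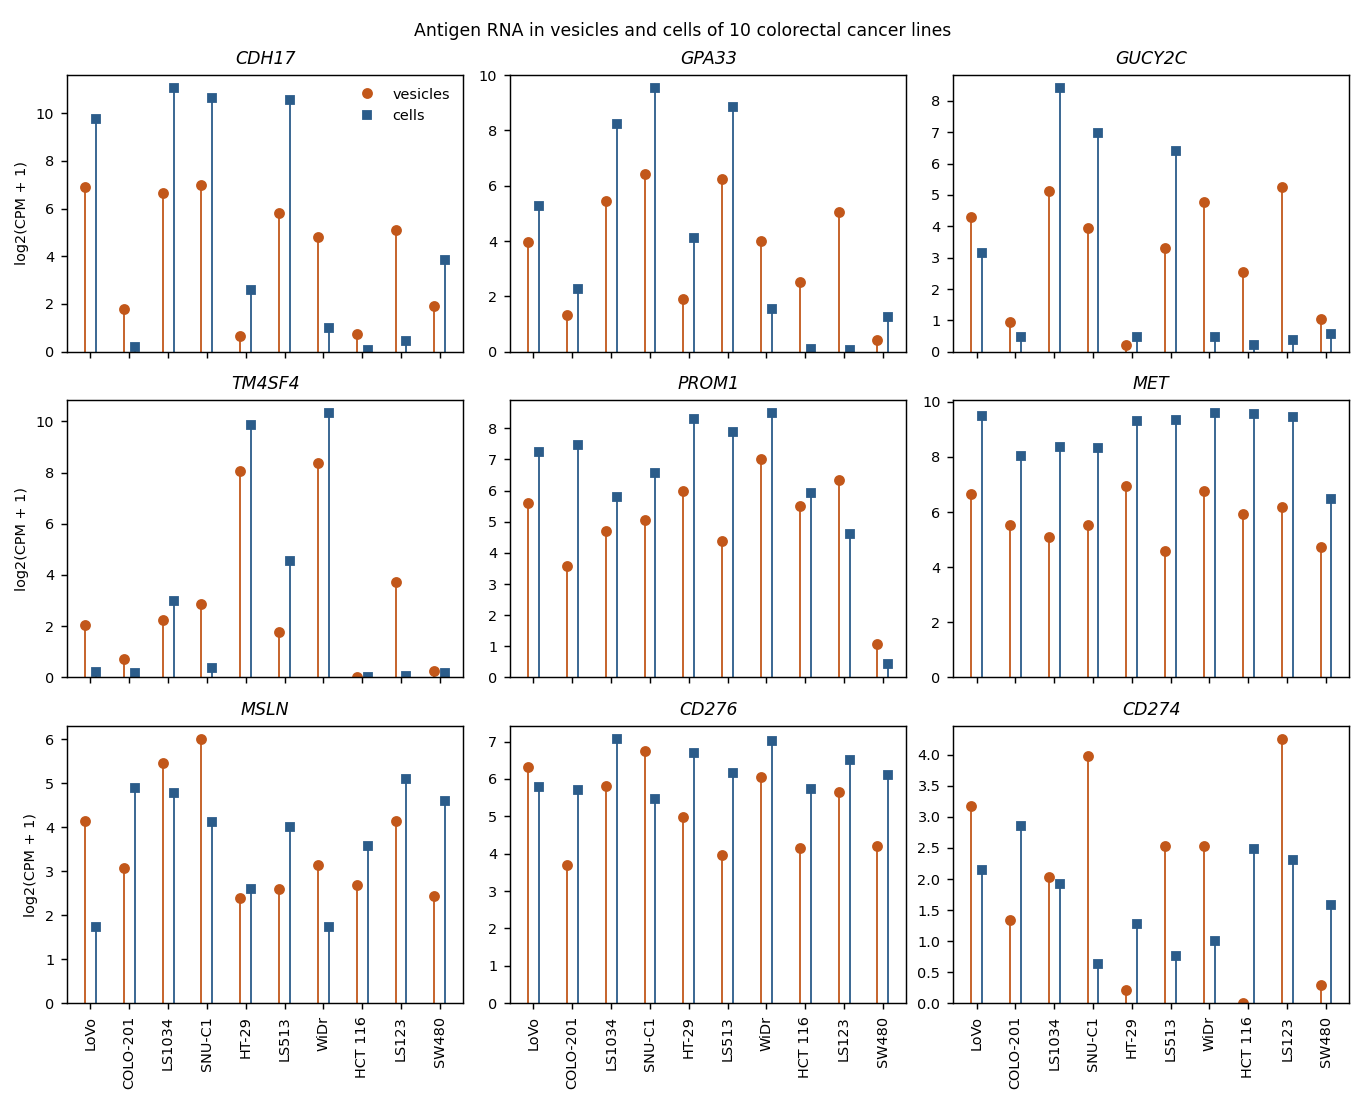
Level of each antigen in vesicles (orange circles, left of each pair) and cells (blue squares) of the 10 lines, as log2(CPM + 1), 1 library per point; the vertical scale differs between panels. CDH17, GPA33 and GUCY2C peak in LS1034, SNU-C1 and LS513 cells, TM4SF4 in HT-29 and WiDr in both compartments, and MET lies below the cell level in the vesicles of 10 of 10 lines.

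TM4SF4, a tetraspan membrane protein of the L6 family, was high in a single pair of related lines. Its level ran from 0 CPM (HCT 116) over a median of 3.43 to 334 CPM (WiDr) in vesicles and from 0 CPM (HCT 116) over a median of 0.232 to 1265 CPM (WiDr) in cells. WiDr and HT-29 had 334 and 269 CPM in vesicles and 1265 and 914 CPM in cells. Both lines lay far above the other 8 in both compartments, and their vesicles held 26.4% and 29.4% of the cell level. The next lines in cells were LS513 at 22.6 CPM and LS1034 at 6.86 CPM, with 2.39 and 3.77 CPM in their vesicles. LS123 vesicles came next after WiDr and HT-29 vesicles, with 12.2 CPM from 25 counts, against 1 count in LS123 cells. Those 25 counts lay under the background limit of 47.8. Only WiDr and HT-29 vesicles exceeded their limit for TM4SF4. HCT 116 was listed with 0 counts in vesicles and cells, which allows up to 0.650 CPM in vesicles and 0.0908 CPM in cells.

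PROM1 encodes prominin-1, a glycoprotein of membrane protrusions that is used as a marker of stem-like tumour cells. It had 1.10 CPM at the lowest (SW480), 38.3 at the median and 128 at the highest (WiDr) in vesicles, against 0.359 CPM (SW480), 122 and 355 CPM (WiDr) in cells. SW480 was the lowest and WiDr the highest line in both compartments. HT-29 had 62.6 CPM in vesicles and 313 CPM in cells, whereas LS513 had 19.995 CPM in vesicles and 234 CPM in cells, and COLO-201 had 10.9 CPM in vesicles and 176 CPM in cells. LS123 went the other way, with 80.1 CPM in vesicles and 23.2 CPM in cells. The LS123 vesicles had 164 counts against a background limit of 166, so this excess is not shown to be PROM1 transcript. Among lines whose vesicles exceeded the limit, the vesicle share ran from 6.16% in COLO-201 to 74.4% in HCT 116. PROM1 overlaps FGFBP2 on the same strand, so part of its reads may be uncertain.

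MET, the receptor tyrosine kinase for hepatocyte growth factor, was expressed by the cells of all 10 lines and lay lower in vesicles in each of them. Vesicles had 22.9 CPM (LS513) at the lowest, 53.2 at the median and 122 (HT-29) at the highest, and cells had 88.2 CPM (SW480), 634 and 762 CPM (WiDr). The vesicle libraries of HT-29 (122 CPM), WiDr (106 CPM) and LoVo (99.2 CPM) exceeded SW480 cells, the lowest cell library, and the other 7 lay below every cell library. Vesicles held 3.58% of the cell level in LS513 and 29.2% in SW480, with a median of 13.97%. That median includes LS1034, SNU-C1 and LS123, whose vesicle counts did not exceed the background limit. Their counts were 5.59, 1.74 and 2.79 times the estimated background, so by that limit these shares are not shown to be MET transcript.

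MSLN encodes mesothelin, a lipid-anchored surface glycoprotein that binds MUC16. Its level was modest, from 4.27 CPM (HT-29) over a median of 7.65 to 62.9 CPM (SNU-C1) in vesicles and from 2.30 CPM (LoVo) over a median of 15.7 to 33.1 CPM (LS123) in cells. The compartments overlapped, and the highest vesicle levels, 62.9 CPM in SNU-C1 and 43.0 CPM in LS1034, lay above every cell level. In the 5 lower-background lines vesicles had 18.9% (SW480) to 85.2% (HT-29) of the cell level. In 4 of the 5 higher-background lines vesicles exceeded cells, up to 724% in LoVo, and LS123 was the exception at 50.2%. Vesicle counts of WiDr (23, limit 67.9), LS123 (34, limit 57.2) and LS513 (40, limit 46.4) did not exceed the background limit. Their shares are thus not shown to be MSLN transcript. Counts were 1.16 times the estimated background in WiDr, 1.92 in LoVo, 2.51 in SNU-C1 and 3.18 in LS1034.

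CD276 (B7-H3) is a B7 family protein common on tumour cells, and its level varied less between the lines in cells than in vesicles. Vesicles had 12.0 CPM (COLO-201), a median of 39.6 and 107 CPM (SNU-C1), against 43.5 CPM (SNU-C1), 69.3 and 133 CPM (LS1034) in cells. SNU-C1 was thus the highest line in vesicles and the lowest in cells. CD274 encodes PD-L1, the ligand of the PD-1 receptor. It stayed low, from 0 CPM (HCT 116) over a median of 3.94 to 18.1 CPM (LS123) in vesicles and from 0.545 CPM (SNU-C1) over a median of 2.39 to 6.20 CPM (COLO-201) in cells. COLO-201 alone reached 5 CPM in cells, with 1.54 CPM in its vesicles. Its vesicle counts were 0 to 2.59 times the estimated background and in no line exceeded the limit set from silent genes of the same library, so CD274 was not detectable above background in vesicles at this depth.

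Compared over the 10 lines, MET, PROM1 and CD276 fell in vesicles, no antigen rose, and the other 6 did not pass the test. With edgeR's quasi-likelihood test, cell line as a block and Benjamini-Hochberg adjustment over 15130 genes, 3 of 9 antigens were lower in vesicles and 0 higher at an adjusted p under 0.05. The background was 28.1% of all genes lower and 28.6% higher, and among genes averaging 5 CPM or more in cells 39.1% lower and 7.38% higher. The antigens' share, 3 of 9, was close to the share of falls among those genes. The p-values measure the spread between lines, since each line had 1 library per compartment. In bulk RNA, fewer vesicles or cells carrying a transcript and less of it in each cannot be told apart.

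The log2 fold change of vesicles over cells for MET was -3.49 (SE 0.34, edgeR adjusted p = 1.97e-06), lower in vesicles of 10 of 10 lines, and the median of all genes was 0.01 on this scale. For CD276 it was -1.58 (SE 0.27, edgeR adjusted p = 0.000203), lower in 9 of 10 lines after TMM scaling and in 8 of 10 by CPM, with SNU-C1 and LoVo the 2 lines that were higher by CPM. PROM1 was at -1.87 (SE 0.53, edgeR adjusted p = 0.00830), lower in 8 of 10 lines, with LS123 and SW480 the exceptions. That call was lost with upper-quartile scaling (-1.11, adjusted p = 0.0711), where the median of all genes was 0.76, and within the 5 lower-background lines (-2.10, adjusted p = 0.0799). MET and CD276 passed the test both within the lower-background lines, at -3.08 and -2.04, and within the higher-background lines, where CD276 was at -1.08 (adjusted p = 0.0362).

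The intestinal antigens had wide errors, and lines of high and low cell level differed in direction. CDH17 was at -1.86 on the log2 scale (SE 1.57, edgeR adjusted p = 0.329), and GPA33 at -1.29 (SE 1.15, adjusted p = 0.358). CDH17 was lower in vesicles of 6 of 10 lines and GPA33 of 7, and the exceptions were lines whose cells had 1.90 CPM or less. Without WiDr and LS123 both passed the test, CDH17 at -3.10 (adjusted p = 0.0266) and GPA33 at -2.21 (adjusted p = 0.0322), and without the line block CDH17 did so at -4.44 (adjusted p = 0.0255). Without LoVo the values were smaller, CDH17 at -0.88 and GPA33 at -0.69, neither past the test. The median of all genes also moved in that fit, to 0.35 from 0.01 with all lines. GUCY2C, at 0.51 (SE 1.29, adjusted p = 0.756), and TM4SF4, at 0.20 (SE 1.06, adjusted p = 0.888), were each lower in vesicles of 4 of 10 lines. For TM4SF4 these were the 4 lines at 5 CPM or more in cells, and for GUCY2C they included 3 of 4 such lines. The exception was LoVo, with 18.8 CPM in vesicles and 7.80 CPM in cells. The sign of both depended on the lines and the fit: without WiDr and LS123 the value for GUCY2C was -0.84, and within the lower-background lines that for TM4SF4 was -1.31, neither past the test.

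MSLN differed between the lower-background and higher-background lines. Its log2 fold change over all lines was -0.60 (SE 0.49, edgeR adjusted p = 0.317). Within the 5 lower-background lines it was -1.55 (adjusted p = 0.0231), lower in vesicles of all 5, and within the 5 higher-background lines 0.48 (adjusted p = 0.529). The difference between these sets of lines was not tested, and neither was the part of the background in it. The sets also differ in vesicle depth, at most 4.51 M counts in higher-background and at least 4.62 M in lower-background lines. Background and depth thus cannot be told apart. CD274 had -0.30 (SE 0.99, adjusted p = 0.815) and changed sign with the scaling, to 0.09 with DESeq2 size factors, 0.20 with library size alone and 0.47 with upper-quartile scaling. Its vesicle counts lay below the estimated background in 7 of 10 lines, so the value after background subtraction (-4.17, adjusted p = 0.0263) follows from the subtraction and is no measured fall.

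**Figure D2:**
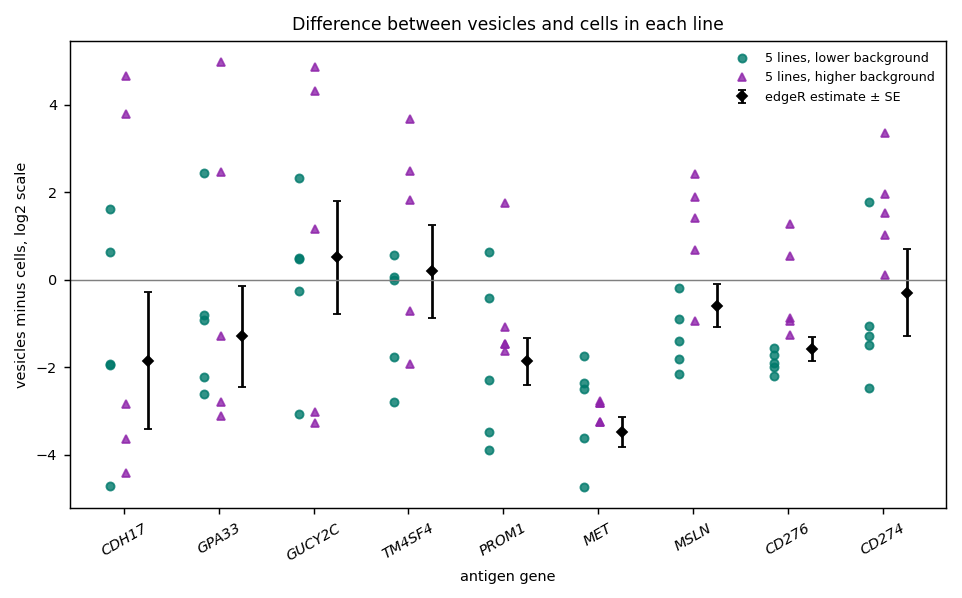
Difference between vesicles and cells of each line in log2(CPM + 1), for the 5 lower-background lines (green circles) and the 5 higher-background lines (purple triangles), with the edgeR log2 fold change ± SE beside them (black diamonds, TMM-scaled, n = 10 lines). MET lies below 0 in 10 of 10 lines, while for MSLN the lower-background lines lie below 0 and 4 of the 5 higher-background lines above it.

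Genes that act with the antigens were read from lists chosen by function. Averages of listed genes and markers are of TMM-scaled CPM. Of 11 MET pathway genes tested, 7 fell and 2 rose in vesicles, with a median log2 fold change of -1.30, beside 28.1% lower and 28.6% higher over all genes and 39.1% and 7.38% among genes averaging 5 CPM or more in cells. These shares also stand beside the counts of the lists that follow. The 2 that rose, HGFAC and HPN, had medians under 1 CPM in cells. The matriptase gene ST14, whose protease activates hepatocyte growth factor, averaged 53.0 ± 30.9 CPM in vesicles and 531 ± 289 CPM in cells (SD, n = 10 each) at -3.34 on the log2 scale (SE 0.34, edgeR adjusted p = 2.72e-06). SPINT1, an inhibitor of that protease, averaged 51.4 ± 39.4 CPM in vesicles and 277 ± 180.2 CPM in cells, at -2.51 (SE 0.24, edgeR adjusted p = 1.75e-06). Both were lower in vesicles of 10 of 10 lines, as MET was. The ligand HGF itself stayed under 1 CPM in the cells of all lines.

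Of 8 guanylate cyclase C pathway genes tested, 3 rose (GUCA2B, SLC9A3 and SLC26A3) and 1 fell (SLC9A3R1), with a median log2 fold change of 0.99. GUCA2B, which encodes uroguanylin, averaged 2.56 ± 1.91 CPM in vesicles and 0.139 ± 0.192 CPM in cells (SD, n = 10 each), at 4.99 (SE 0.79, edgeR adjusted p = 0.000102), and stayed under 1 CPM in the cells of all lines, so it entered the test through its vesicle counts, and after background subtraction neither it nor SLC9A3 was left to test. SLC9A3, the sodium-proton exchanger that the pathway inhibits, averaged 7.13 ± 5.35 CPM in vesicles and 1.79 ± 2.81 CPM in cells, at 2.85 (SE 0.69, edgeR adjusted p = 0.00283). Of 14 intestinal regulators and differentiation genes, 3 fell (HNF4A, GATA6 and KLF5) and 1 rose (CDHR2), with a median of 0.11. KLF5, a transcription factor of crypt cells, averaged 188 ± 136 CPM in vesicles and 624 ± 437 CPM in cells, at -1.59 (SE 0.37, edgeR adjusted p = 0.00213). CDHR2, a brush border protocadherin, averaged 16.4 ± 9.77 CPM in vesicles and 6.42 ± 12.0 CPM in cells, at 3.73 (SE 0.85, edgeR adjusted p = 0.00171), and was not called without the line block (1.34) or, at a similar value, within the higher-background lines (3.79, adjusted p = 0.0644). Within the lower-background lines KLF5 (-0.89) and SLC9A3 (2.21) were not called.

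Around the B7 antigens, 9 of 12 checkpoint ligand genes were tested, and 3 fell (PVR, NECTIN2 and CD47) while 1 rose (ICOSLG). PVR and NECTIN2 encode ligands of the receptors TIGIT and DNAM-1. PVR averaged 28.3 ± 25.2 CPM in vesicles and 116 ± 86.1 CPM in cells (SD, n = 10 each), at -2.15 (SE 0.23, edgeR adjusted p = 3.39e-06), and NECTIN2 30.5 ± 25.9 CPM in vesicles and 209 ± 212 CPM in cells, at -2.52 (SE 0.31, edgeR adjusted p = 1.02e-05). CD80, CD86 and PDCD1LG2 stayed under 1 CPM in all cells. Of 8 interferon gamma response genes, which lie upstream of CD274 or beside it, 6 fell and 1 rose. CMTM6, which stabilises the PD-L1 protein, averaged 63.9 ± 37.6 CPM in vesicles and 361 ± 229.9 CPM in cells, at -2.44 (SE 0.25, edgeR adjusted p = 3.11e-06), and the kinase gene JAK1 65.1 ± 26.5 CPM in vesicles and 227 ± 81.2 CPM in cells, at -1.83 (SE 0.24, edgeR adjusted p = 1.89e-05). Of 19 other surface antigens tested, 8 fell and 4 rose (MUC1, CLDN18, FAP and MUC16). In cells the medians of these 4 were under 1 CPM, so they could enter the test through vesicle counts that include background. Among those that fell, the death receptor gene TNFRSF10B averaged 24.8 ± 12.9 CPM in vesicles and 167 ± 83.1 CPM in cells, at -2.74 (SE 0.28, edgeR adjusted p = 2.89e-06), and the complement regulator gene CD46 98.1 ± 62.0 CPM in vesicles and 884 ± 589.7 CPM in cells, at -3.18 (SE 0.34, edgeR adjusted p = 4.20e-06). PVR, NECTIN2, CMTM6, JAK1, TNFRSF10B and CD46 were lower in vesicles of 10 of 10 lines.

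The epithelial markers EPCAM and CDH1, both adhesion molecules, were the 2 of 8 that fell, EPCAM at -3.13 (SE 0.39, edgeR adjusted p = 1.17e-05) and CDH1 at -4.22 (SE 0.41, edgeR adjusted p = 1.82e-06), and CDH1 averaged 27.5 ± 16.2 CPM in vesicles and 591 ± 390.2 CPM in cells. Of the foreign cell markers that passed the filter on low counts, 2 of 3 erythroid and platelet, 3 of 3 fibroblast and endothelial and 1 of 1 hepatocyte markers were higher in vesicles. With cell levels this low, such genes could enter the test through their vesicle counts alone. In vesicles HBB averaged 26.7 ± 48.4 CPM, HBA1 3.58 ± 2.04, COL1A2 22.3 ± 22.2, VWF 32.2 ± 28.4 and APOA1 3.54 ± 2.97 CPM, and in cells each averaged under 1 CPM. The call of HBA1 was lost after background subtraction (2.46, adjusted p = 0.1002). These vesicle levels lie in the same range as those of CDH17, GPA33 and GUCY2C in vesicles of lines whose cells hardly express them.

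Whether vesicle levels follow cell levels from line to line was asked for each antigen by the correlation of log2(CPM + 1) in cells and vesicles. Of 8 antigens averaging 5 CPM or more in cells, 0 passed a permutation test adjusted over 10863 genes. Over all these genes 6.05% passed by Pearson's r and 1.95% by Spearman's rho, 26.9% had an unadjusted p under 0.05 for r, and the median r was 0.45. CD274 lay under the 5 CPM limit. GPA33 had a Pearson r of 0.671 (permutation p = 0.0393, adjusted p = 0.166) and a Spearman rho of 0.576 (permutation p = 0.0881, adjusted p = 0.289, n = 10). Its cell levels had a gap of 2.98 in log2(CPM + 1) between 3 high lines (LS1034, LS513 and SNU-C1) and 7 low ones. That lies just under the gap of 3 that defined separate clusters, so its r values are not read as a graded relation. Without LS513 and SNU-C1, the lines farthest from the median in cells, r was 0.377, so the relation rests on those lines. Without WiDr and LS123 it was 0.913 and rho 0.857 (permutation p for r = 0.00475, adjusted p = 0.0736, n = 8), and without LS123 alone r was 0.841.

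MET had r = 0.624 (permutation p = 0.0455, adjusted p = 0.178) and rho = 0.576 (permutation p = 0.0883, adjusted p = 0.289), and r was 0.507 without COLO-201 and SW480. Without LS513 alone, whose vesicles were low for their cells, it was 0.852. PROM1 had r = 0.694 (permutation p = 0.0510, adjusted p = 0.188) and rho = 0.358 (permutation p = 0.313, adjusted p = 0.532), and r was 0.345 without LS123 and SW480. Without WiDr and LS123 r was 0.817 (permutation p = 0.0620, adjusted p = 0.223, n = 8). It was 0.00443 without SW480 alone, so the value for PROM1 rests on that line. MSLN (r = 0.206, permutation p = 0.572, adjusted p = 0.715; rho = 0.152, permutation p = 0.684, adjusted p = 0.818) and CD276 (r = 0.184, permutation p = 0.602, adjusted p = 0.740; rho = 0.127, permutation p = 0.737, adjusted p = 0.853) showed no relation past the test, with r of 0.389 and -0.155 without the 2 farthest lines. Leaving out 1 line gave 0.0687 to 0.346 for MSLN and 0.0399 to 0.548 for CD276, the highest for CD276 without SNU-C1. Each set of 5 lines by background is too small for a correlation of its own.

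For CDH17, GUCY2C and TM4SF4 the cell levels fell into separate clusters, so no correlation over all lines is given. CDH17 was high in 4 lines and low in 6, and within the low lines r was -0.254 and rho 0.0857 (n = 6). GUCY2C was high in 3 lines and low in 7, and within the low lines r was 0.308 and rho -0.0357 (n = 7). TM4SF4 was high in 2 lines and low in 8, and within the low lines r was 0.138 and rho 0.3095 (n = 8). These within-cluster values are descriptions, with no test.

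**Figure D3:**
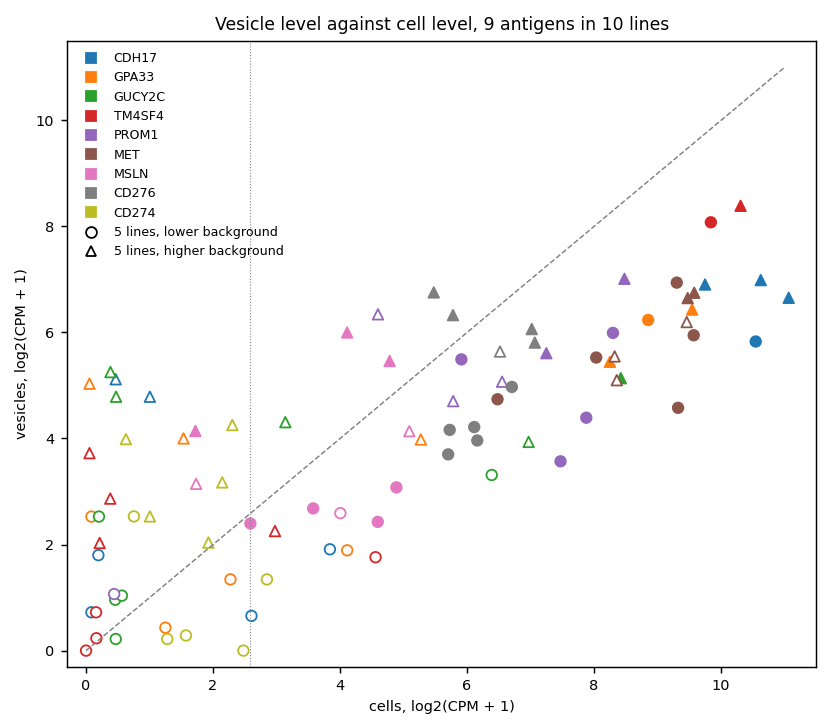
Vesicle level against cell level in log2(CPM + 1) for 9 antigens (colours) in 10 lines, circles for lower-background and triangles for higher-background lines; filled symbols had vesicle counts above the background limit, the dashed line marks equal levels and the dotted line 5 CPM in cells. Points at high cell levels are mostly filled and lie below the dashed line, while at the left edge open triangles of higher-background lines lie above it.

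Large differences between lines kept their order in vesicles more often than not. Among pairs of lines whose cells differed at least 4-fold in CPM + 1, vesicles had the same order in 121 of 162 antigen comparisons (74.7%), a description, since the pairs share lines. The same held for 79% of such comparisons over all genes. CDH17 kept the order in 26 of 31 pairs, GPA33 in 25 of 32, TM4SF4 in 23 of 28, GUCY2C in 19 of 28, PROM1 in 14 of 19, MET in 5 of 6 and MSLN in 9 of 16. CD276 had 0 such pairs and CD274 kept 0 of 2. Within the lower-background lines 31 of 37 kept their order against 90.8% of all genes' pairs, and within the higher-background lines 26 of 38 against 75.4%. GUCY2C kept 2 of 8 there. Without WiDr and LS123 the count was 86 of 102, against 81.4% of all genes' pairs, and GUCY2C kept 18 of 20.

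Antigen status was read as a yes or no per line. A line's cells were called positive at 5 CPM or more, and its vesicles when their counts per kilobase exceeded the 95th percentile of silent genes in the same library, with at least 10 counts. Vesicle and cell status matched in 70 of 90 antigen and line pairs (77.8%), a description, since the pairs share lines, genes and libraries. Of 57 pairs positive in cells, 38 were found in vesicles (66.7%, against 64.6% over all genes). Of 33 pairs negative in cells, 1 was positive in vesicles (3.03%, against 9.59% over all genes). That pair was MSLN in LoVo, with 54 vesicle counts against a limit of 50.2 and 2.30 CPM in cells. Those counts were 1.92 times the estimated background. The limit was itself set on genes silent in cells. A low share of positives among cell-negative pairs thus follows in part from the cut-off and is no finding about the antigens.

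Detection in vesicles went with the level in cells. Vesicles were above background in 24 of 28 pairs at 100 CPM or more in cells (all genes 87.1%), in 11 of 19 from 20 to 100 CPM (64.5%), in 3 of 10 from 5 to 20 CPM (41.7%), in 1 of 13 from 1 to 5 CPM (20.6%) and in 0 of 20 under 1 CPM (6.68%). The 19 pairs missed had a median of 33.1 CPM in cells, and the 38 found a median of 205 CPM. Missed at 100 CPM or more were GUCY2C in SNU-C1 and MET in LS1034, SNU-C1 and LS123, all higher-background lines with 4.51 M vesicle counts or fewer. In the lower-background lines 21 of 28 positive pairs were found (all genes 85.5%), and 0 of 17 negative pairs were positive (13.1%). In the higher-background lines 17 of 29 positive pairs were found (43.8%), and 1 of 16 negative pairs was positive (6.03%). The low counts among negative pairs, and among pairs under 1 CPM in cells, again follow in part from how the limit was set.

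By antigen, CD276 was found in 9 of 10 positive lines, MET in 7 of 10, MSLN in 6 of 8, PROM1 in 6 of 9, CDH17 in 4 of 6, GPA33 in 3 of 5, TM4SF4 in 2 of 4, GUCY2C in 1 of 4 and CD274 in 0 of 1. The limit allows for length and not for base composition, so these counts do not rank the antigens. In LS1034 vesicles, MSLN and CD276 were positive at 3.18 and 2.49 times the estimated background. MET and PROM1 were not positive there, at 5.59 and 3.66 times. By line, the status of 9 of 9 antigens matched in WiDr and HCT 116 (all genes 66.3% and 83.8%), while in LS123 none of 4 positive antigens was found (all genes 40.3%). A plain limit of 5 CPM in vesicles behaved differently in the higher-background lines. With it, 13 of 33 cell-negative pairs were positive in vesicles (47.8% over all genes), 0 of 17 in the lower-background lines (17.3%) and 13 of 16 in the higher-background lines (78.7%). These 13 were CDH17, GPA33, GUCY2C, TM4SF4 and CD274 in LS123, CDH17, GPA33, GUCY2C and MSLN in WiDr, TM4SF4 and CD274 in SNU-C1, and MSLN and CD274 in LoVo.

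**Figure D4:**
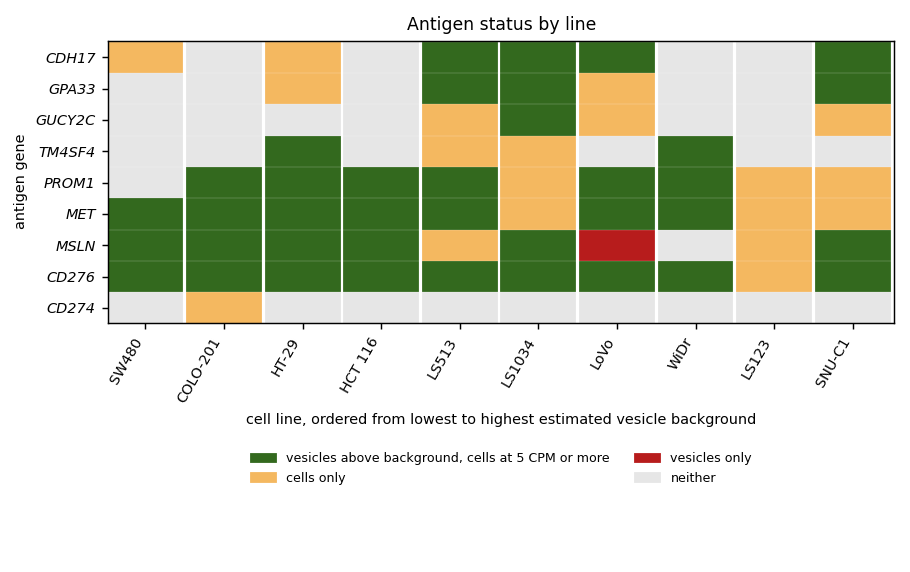
Status of each antigen (rows) in each line (columns, from the lowest to the highest estimated vesicle background, left to right): green where vesicles were above background and cells at 5 CPM or more, yellow for cells alone, red for vesicles alone, grey for neither. The 38 green cells include 16 in the CD276 and MET rows, and the single red cell is MSLN in LoVo.

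As a panel, the 9 antigens pointed to the line of origin in fewer lines than the whole transcriptome did. The sets differ in size, 9 against 10863 genes, and no other set of 9 genes was read. The difference thus cannot be credited to these antigens. With levels centred per gene within each compartment, the nearest cell library over the 9 antigens was that of the vesicles' own line for 2 of 10 lines (LoVo and SW480) and among the 2 nearest for 6 of 10. Over all genes averaging 5 CPM or more in cells it was the own line for 10 of 10. The related HT-29 and WiDr were exchanged: HT-29 vesicles were nearest to WiDr cells and WiDr vesicles to HT-29 cells, with the own line second in both. COLO-201 and HCT 116 were exchanged too, with the own line in place 3 and place 2, although their cell libraries correlated at -0.181. LS1034, SNU-C1 and LS513 vesicles were nearest to LoVo cells. LS123 vesicles were also nearest to LoVo cells, with LS123 cells in place 8. Without CDH17, LS513 and LS123 vesicles were still nearest to LoVo cells, whereas LS1034 vesicles were nearest to their own.

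Within a line, levels per length (RPKM) can be compared between antigens. The leading antigen was the same in vesicles and cells in 8 of 10 lines: CDH17 in LoVo, LS1034 and SNU-C1, TM4SF4 in HT-29 and WiDr, and MET in COLO-201, HCT 116 and SW480. TM4SF4 led with 126 RPKM in vesicles and 427 RPKM in cells of HT-29, and with 156 RPKM in vesicles and 591 RPKM in cells of WiDr. In LS513, GPA33 led in vesicles (23.2 RPKM) and CDH17 in cells (383 RPKM), and in LS123, PROM1 led in vesicles (10.8 RPKM) and MET in cells (99.8 RPKM). No antigen exceeded the background limit in LS123 vesicles, so their order is not shown to rank transcript levels. PROM1 and MET came near it there, with 164 counts against 166 and 148 against 157. These counts were 2.88 and 2.79 times the estimated background. The rank correlation of the 9 antigens between vesicles and cells of a line was 0.2 in LS123 and 0.983 in HT-29 at the extremes, with a median of 0.775, as a description.

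The genes whose cell pattern was most like that of each antigen, by Pearson r of log2(CPM + 1) over the 10 cell libraries, were described as well, with their likeness in vesicles given first. CDH17 paired with MYO1A, a brush border myosin (r = 0.952 in vesicles and 0.976 in cells), and with NRXN3 (0.868 and 0.972). GUCY2C paired with the intestinal homeobox gene CDX1 (0.531 in vesicles and 0.976 in cells) and with CADPS (0.872 and 0.964). GPA33 paired with SLPI, a secreted protease inhibitor (0.335 in vesicles and 0.960 in cells), and with BCL2L14 (0.906 and 0.959). TM4SF4 paired with the kallikrein KLK11 (0.916 in vesicles and 0.988 in cells) and with the TGF-beta co-receptor gene ENG (0.389 and 0.969). Some of these likenesses were thus close in vesicles too and others were not. The nearest genes were LRRFIP1 and UGT8 for PROM1, STK39 and LRRC8B for MET, C11orf80 and TOR3A for MSLN, RGL3 and NR2F6 for CD276, and CEP135 and KLHL29 for CD274, with r from 0.922 to 0.954 in cells. Their r in vesicles ran from -0.108 for NR2F6 with CD276 to 0.860 for KLHL29 with CD274. All points share the same libraries, and with 10 lines the highest r among so many genes is a description.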

How the data were processed

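RNA of vesicles and cells from 10 lines was analysed, 1 library each. The authors deposited gene-level read counts, with no normalization recorded. The names STAR, featureCounts and hg19 appear per the submitters' processing notes; versions, annotation and strand setting are not given in the sources used here. Every value column matched the title of 1 library.

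Counts were tested with edgeR 4.0.16 (R 4.3.3; TMM, filterByExpr, robust quasi-likelihood fit, line as block; Benjamini-Hochberg, 0.05), with DESeq2 1.42.0 as an alternative. Vesicles and cells are paired because the labels give the same cell line; the correlation of their deviations from the compartment means was 0.201 to 0.635 and highest for the own line in 10 of 10 lines. CPM was scaled to the library total, except that averages of listed genes and markers are of TMM-scaled CPM. Lengths and base composition were taken by symbol from GENCODE release 29 for 16827 of 17113 genes (98.3%). Vesicle background was modelled from silent genes by Poisson regression on length and base composition (statsmodels 0.14.6). Correlations used 100000 permutations (20000 for alternatives). A gap of 3 in log2(CPM + 1) between neighbouring lines defined clusters. The main fit was tested on simulated counts with no differences between lines and no vesicle background, so that test does not cover these features. The labels name no molecular identifiers and reads need not be independent, so intervals and floors cover counting error alone.

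The antigens, the gene lists, the tests and the rule for named genes (all 9 antigens, the 2 genes most like each in cells, and the 2 genes of smallest adjusted p in each list) were chosen with earlier results of these data known. Alternatives changed scaling, filter, tool, block, background, thresholds and lines; the split into 5 higher-background lines was added after the data were seen. Some markers and motifs are not reported here.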

Additional observations from a re-analysis of the deposited data

Results flagged for a closer look

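Of 18 sets of 10 libraries (9 antigens in vesicles and in cells), 2 had a library far from the others, where chance alone flags about 1 in 20. In cells, SW480 was lowest for PROM1, at 0.359 CPM against 23.2 CPM in the next line, LS123, a gap of 0.517 of the whole range on the log2(CPM + 1) scale. In cells, SW480 was also lowest for MET, at 88.2 CPM against 261 CPM in the next line, COLO-201, a gap of 0.502 of the range. Both exceed the critical value of Dixon's test for 10 samples. SW480 vesicles had 1.10 CPM of PROM1 and 25.7 CPM of MET, the lowest and second lowest of the vesicle libraries.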

How the results depend on the processing

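MET and CD276 stayed lower in vesicles and past the threshold under every alternative run. Other values moved. Over all genes 8576 were called, against 4451 after background subtraction and 5697 within the lower-background lines. Calls lower in vesicles numbered 4254 (49.6% of calls), against 2802 with DESeq2 size factors (34.5%), 2465 with library size alone (30.8%), 1759 with upper-quartile scaling (20.2%), 2467 after subtraction and 2816 within the lower-background lines, and 2383 to 4277 leaving out 1 line, lowest without LoVo. The median of all genes was 0.01 with TMM and 0.38, 0.48 and 0.76 under the other scalings. Without the replicate block (no pairing by line) 6908 genes and 4 antigens were called. Without WiDr and LS123, 5 antigens were lower.

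Signs turned for 4 antigens, in no case past the threshold. GUCY2C was at -2.66 without the block, -0.14 after subtraction and -0.84 without WiDr and LS123, and -0.15 to 1.15 leaving out 1 line (negative without WiDr, HCT 116 or LS123). TM4SF4 was at -2.27 without the block and -1.31 within the lower-background lines, and -0.44 to 0.87 leaving out 1 line (negative without COLO-201, SNU-C1 or LS123). MSLN was at 0.14 with upper-quartile scaling and 0.48 within the higher-background lines. CD274 was at 0.0862 (DESeq2 size factors), 0.20 (library size), 0.47 (upper quartile), 0.0715 (DESeq2), 0.25 (no block) and 1.26 (higher-background lines), and -0.74 to 0.15 leaving out 1 line (positive without HT-29, HCT 116 or SW480).

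The correlation called 657 genes, against 261 without WiDr and LS123, 417 with no filter and 153 to 589 leaving out 1 line; after subtraction 1 antigen, TM4SF4, passed (adjusted p = 0.0406), against 0, which rests on the related HT-29 and WiDr and is not read as a relation. The r of CD276 was -0.000702 without WiDr and LS123. Order kept was 70.25% at 2-fold, 82.8% at 8-fold, 84.3% without WiDr and LS123, 83.8% within the lower-background lines and 68.4% within the higher-background lines. Status matched in 65.6% with 1 CPM in cells, 81.1% with 10 CPM in cells and 66.7% with the 99th percentile. The own line was nearest for 4 lines with log2(CPM + 5) and for 4 without GPA33. The cause was not tested. A single library per line and compartment, shallow vesicle libraries and their background limit low values most.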
